A study of Mus musculus with 6 samples.

Results

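The genes described here encode the nuclear subunits of the oxidative phosphorylation system in the mouse heart. Complex I assembly factors that share the Nduf name and a few related genes are included. They were taken from the deposited expression table by gene symbol (Nduf, Sdha to Sdhd, Uqcr, Cox4 to Cox8 and Atp5), with a protein-coding transcript required and the mitochondrial chromosome left out, which gave 94 of 30914 genes. Of these, 45 belong to complex I, 4 to complex II, 8 to complex III, 20 to complex IV and 17 to complex V, and 83 are structural subunits. Another 8 are complex I assembly factors. The rest, counted with complex IV, are Cox7a2l, Ndufa4l2 and Cox5b-ps, a copy of Cox5b named as a pseudogene. The choice used names only and no measured value. A further 14 rows carried such a name but had no protein-coding transcript.

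The libraries were poly(A) RNA-seq of hearts from male wild-type C57BL/6J mice that were 8 weeks old at the start. All 6 mice received angiotensin II (Ang II), a hormone that raises blood pressure and enlarges the heart, at 1 μg/kg/min for 4 weeks from osmotic pumps. In the Ang II + Tec group (n = 3), tectochrysin (Tec), a plant flavonoid, was also given at 5 mg/kg during the last 2 weeks, whereas the Ang II group (n = 3) received Ang II without Tec. No library from mice without Ang II was analysed here, so the comparison asks what Tec altered in hearts under Ang II, not whether it restored a normal level. Values given below with Ang II are those of the Ang II group and values given with Tec are those of the Ang II + Tec group, in the order of replicates 1 to 3.

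Oxidative phosphorylation is the main source of ATP in cardiac muscle. Complexes I and II pass electrons from NADH and succinate to coenzyme Q, complex III passes them on to cytochrome c, complex IV transfers them to oxygen, and complex V uses the resulting proton gradient to make ATP. Complexes I, III, IV and V combine subunits of the nuclear genome with subunits of the mitochondrial genome, while complex II is wholly nuclear. Several subunits of complex IV exist as a form of heart and skeletal muscle and a form found in most other tissues.

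No nuclear oxidative phosphorylation gene passed the test between the groups after adjustment over all genes. Expression was measured as FPKM, fragments counted relative to transcript length and library size, and compared on the log2(FPKM + 1) scale with limma, so that fold changes of low genes are understated. In limma, 0 of the 93 tested genes had a Benjamini-Hochberg adjusted p under 0.05; the background was 0.183% of all 13089 tested genes. At an unadjusted p under 0.05, 12 of the 93 were lower with Tec, against 16.5% of all tested genes, and 0 were higher, against 2.09%. The lowest and highest fold changes were -0.59 for Cox6a1 and 0.33 for Ndufv1 on the log2 scale. The remaining gene, Cox7b2, a testis form of a complex IV subunit, was below the limit on low values, with FPKM of 0, 0.12 and 0.23 with Ang II and 0.34, 0 and 0 with Tec.

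The direction of these genes depended on how the libraries were scaled. On the FPKM as deposited, their median log2 fold change was -0.05, with 32 higher and 61 lower, while the median of all tested genes was -0.17, with 2618 higher and 10471 lower. After division of each library by its median-of-ratios factor, taken against the geometric mean of all libraries and called rescaling below, the median of all genes moved by 0.17 to 0.00, and that of the nuclear oxidative phosphorylation genes moved to 0.18, with 77 higher and 16 lower. Between these scalings, 45 genes changed from lower to higher, 16 were lower in both and 32 were higher in both. The median thus lay above that of all genes by either scaling. Cells of a type becoming fewer and RNA per cell becoming less cannot be told apart in bulk heart tissue.

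**Figure D1:**
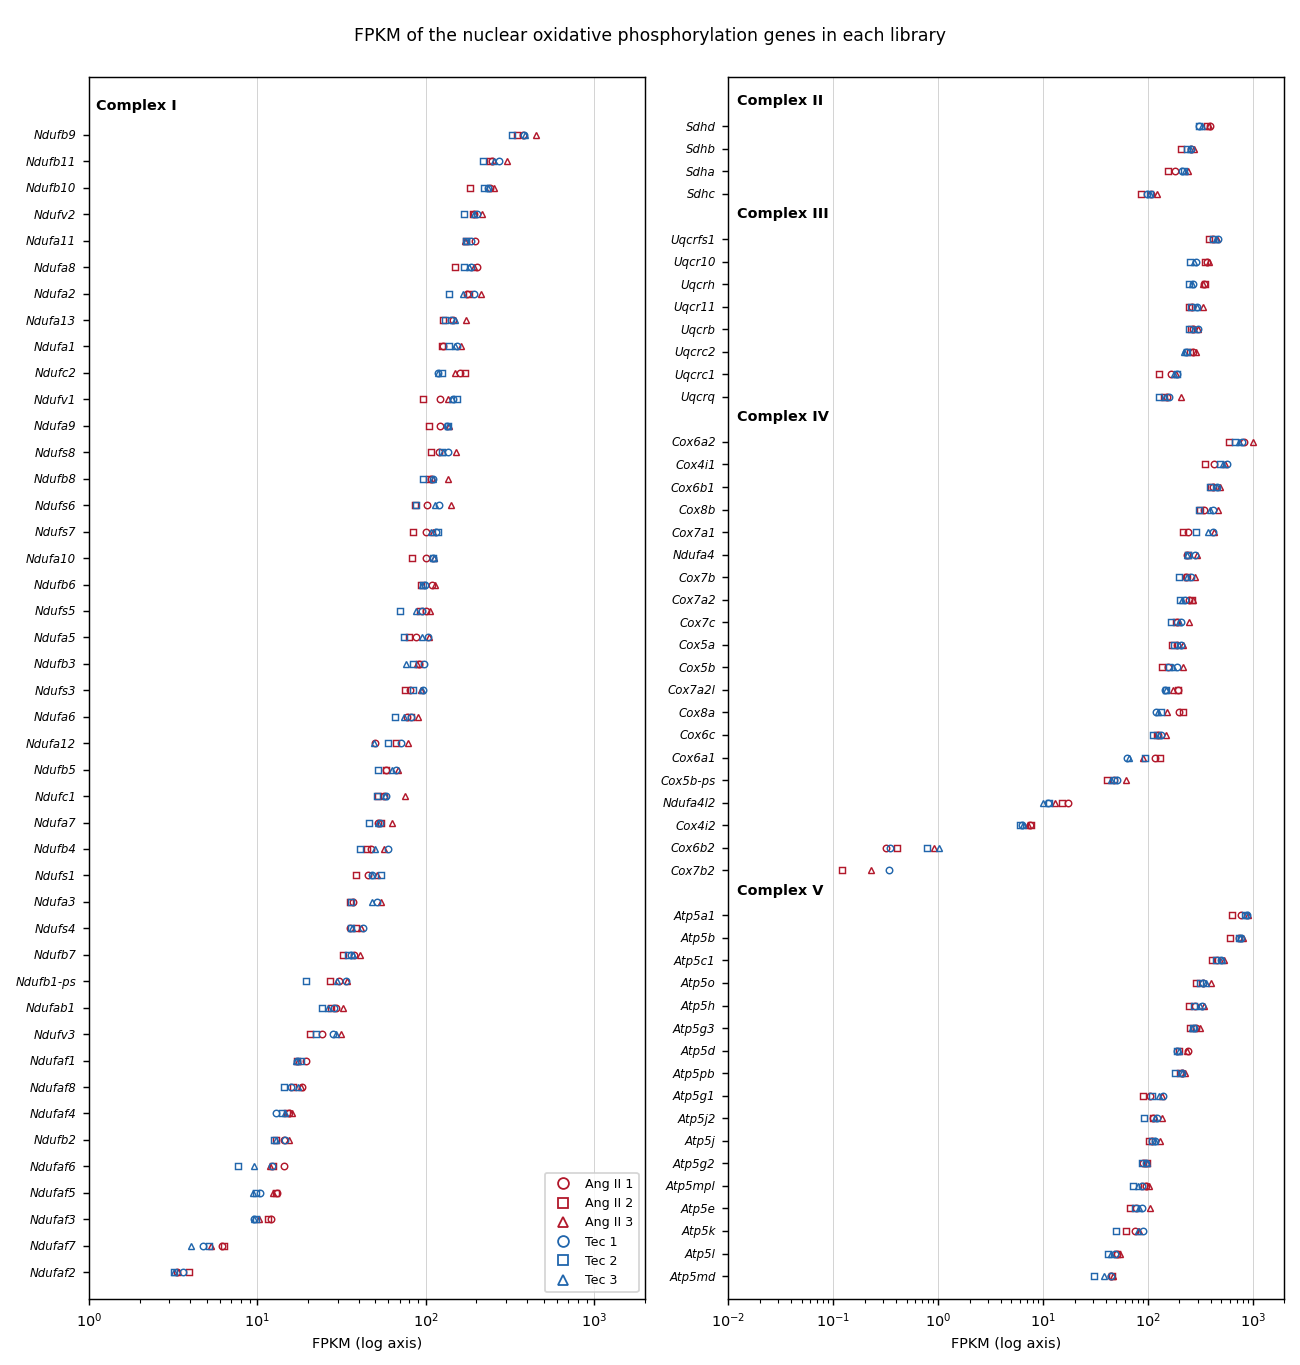
FPKM (log axis) of the genes reported here in each of the 6 libraries, in order of mean level within each complex, with red symbols for the Ang II group and blue symbols for the Ang II + Tec group. Values of 0 (Cox7b2) are not drawn, and the highest means are those of Atp5a1 (813 FPKM) and Cox6a2 (771 FPKM).

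The levels covered a wide range within each complex. Mean FPKM over the 6 libraries ran from 3.45 to 379 in complex I, from 103 to 347 in complex II, from 155 to 429 in complex III, from 0.115 to 771 in complex IV and from 41.6 to 813 in complex V. The highest of each complex were Ndufb9, Sdhd, Uqcrfs1, Cox6a2 and Atp5a1, respectively. The 94 genes together held 2.5 to 3.05% of the summed FPKM of a library. The share was 2.74 to 3.05% with Ang II and 2.5 to 2.63% with Tec, and these ranges did not overlap. Without all genes of the mitochondrial chromosome, which took 40.1 to 52.5% of the FPKM, the shares were 5.17, 4.58 and 5.96% with Ang II and 5.4, 4.97 and 5.29% with Tec, and the groups overlapped.

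Ang II replicate 3 stood apart from the other Ang II libraries, and calls that changed without it are therefore given beside the results below. On the first principal component of all tested genes it lay at 19.2, beside the Ang II + Tec libraries (28.6, 2.4 and 27) and away from Ang II replicates 1 and 2 (-31.2 and -46). It held the highest value of 61 of the 93 tested genes. In 74 of them (79.6%) it exceeded both other Ang II libraries, against 15.3% of all tested genes. Its summed fibroblast marker level was 209 FPKM, against 825 and 1059 FPKM in the other Ang II libraries and 168, 289 and 197 FPKM with Tec. Markers of macrophages summed to 168, 215 and 121 FPKM with Ang II and 68.8, 77.4 and 84 FPKM with Tec. All 8 fibroblast markers and all 6 macrophage markers had a lower mean with Tec, as did 10471 of 13089 tested genes. Of these markers 4 and 6, respectively, were lower at an unadjusted p under 0.05 in limma, against 16.5% of all tested genes. The list medians were -1.29 and -0.91 as deposited and -1.05 and -0.71 after rescaling. Markers of atrial cardiomyocytes summed to 6259, 10323 and 258 FPKM with Ang II and to 908, 5121 and 134 FPKM with Tec. Most of each sum was Nppa (Anp), which the paper also measured as a gene of hypertrophy. Its FPKM was 5568, 9456 and 256 with Ang II and 906, 3489 and 125 with Tec. Myl7, another atrial marker, was at 419, 332 and 0 FPKM with Ang II and 0, 1040 and 1.58 FPKM with Tec. Atrial tissue thus also varied between the libraries. Ventricular cardiomyocyte markers summed to 10146 to 12622 FPKM with Ang II and 11159 to 12573 FPKM with Tec. Of the 10, 6 had a higher mean with Tec, as did 2618 of 13089 tested genes. The list median was 0.16 as deposited, 0.39 after rescaling and 0.29 without Ang II replicate 3. Without that library limma called 2 of the 10 (Myh6 and Ckm) higher, against 2.61% of all tested genes. It then called all 8 fibroblast and all 6 macrophage markers lower, against 26.2% of all tested genes. Adipocyte markers summed to 13, 36.7 and 1.15 FPKM with Ang II and 0.32, 101 and 3.47 FPKM with Tec, and blood markers to 648, 1018 and 248 FPKM and to 526, 376 and 147 FPKM. Smooth muscle and pericyte markers summed to 246, 448 and 214 FPKM with Ang II and 168, 334 and 181 FPKM with Tec. Skeletal muscle markers summed to 8.76, 51.1 and 1.42 FPKM and to 9.59, 9.92 and 11.2 FPKM. Among them Mylpf, a fast myosin light chain, was at 0.58, 0.56 and 0.22 FPKM with Ang II and 4.14, 3.44 and 4.55 FPKM with Tec. It was the 1 marker called with all libraries (log2 fold change 1.80, adjusted p of 0.0142 in limma). The list was divided, since of its 3 tested genes 2 had a higher mean with Tec and 1, Tnnt3, a lower one. Tnnt3 was at 6.91, 42.4 and 0.3 FPKM with Ang II and 1.41, 1.04 and 1.31 FPKM with Tec. Lymphocyte markers summed to 0.5 FPKM or less in every library. The part of these marker differences in the results on oxidative phosphorylation was not tested.

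**Figure D2:**
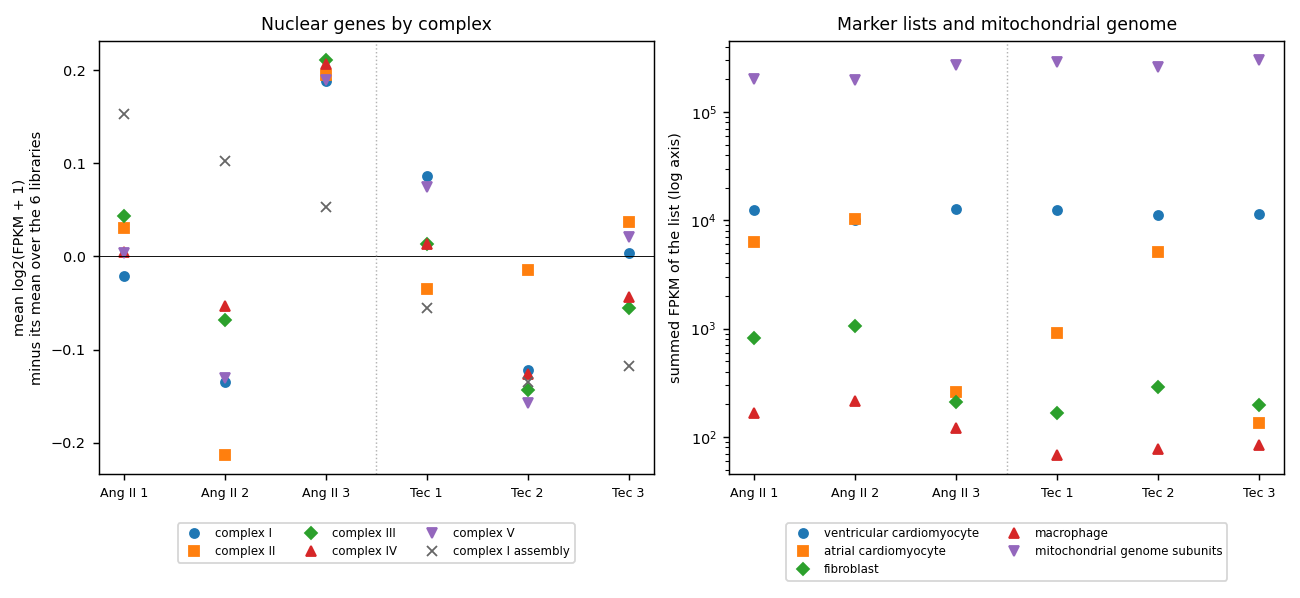
Left, mean log2(FPKM + 1) of the nuclear genes of each complex minus its mean over the 6 libraries; the complex I points exclude the assembly factors, which are drawn as crosses. Right, summed FPKM (log axis) of cell type marker lists and of the 13 mitochondrial-genome subunits. The 5 complexes are highest in Ang II replicate 3, whereas the assembly factors are highest in Ang II replicate 1.

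Without Ang II replicate 3, limma called 13 of the 93 at an adjusted p under 0.05, when 28.8% of all tested genes were called. The 8 that fell were Cox8a, Ndufa4l2, Ndufc2, Uqcrh, Cox6a1, Cox7a2l, Uqcr10 and Ndufaf5, against 26.2% of all genes in that direction. Of the 5 that rose (2.61% of all genes in that direction), Cox7a1, Sdha, Ndufv1 and Cox4i1 are described below. With rescaled libraries and the same library left out, 9 genes were called, against 13.9% of all genes, and all 9 were higher with Tec (6.23% of all genes in that direction), among them Ndufv1, Ndufs1, Ndufs7, Ndufa9, Ndufa10, Sdha, Uqcrc1 and Cox4i1. None of the 8 that fell on the deposited FPKM was among them. Both sets share 4 genes, all of them higher with Tec, among them Ndufv1, Sdha and Cox4i1. The Ang II group then holds 2 libraries, and this library was singled out after the data were seen. The 2 left had fibroblast marker sums of 825 and 1059 FPKM, against 168, 289 and 197 FPKM with Tec. The atrial marker Myl7 was at 419 and 332 FPKM in them and at 0 in the library left out. With Tec it was at 0, 1040 and 1.58 FPKM. The part of such tissue differences in these calls was not tested. The median log2 fold change of the 93 genes without it was 0.04 as deposited, against -0.24 for all tested genes, and by complex it was 0.01, 0.11, -0.01, 0.07 and 0.07 for complexes I to V.

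**Figure D3:**
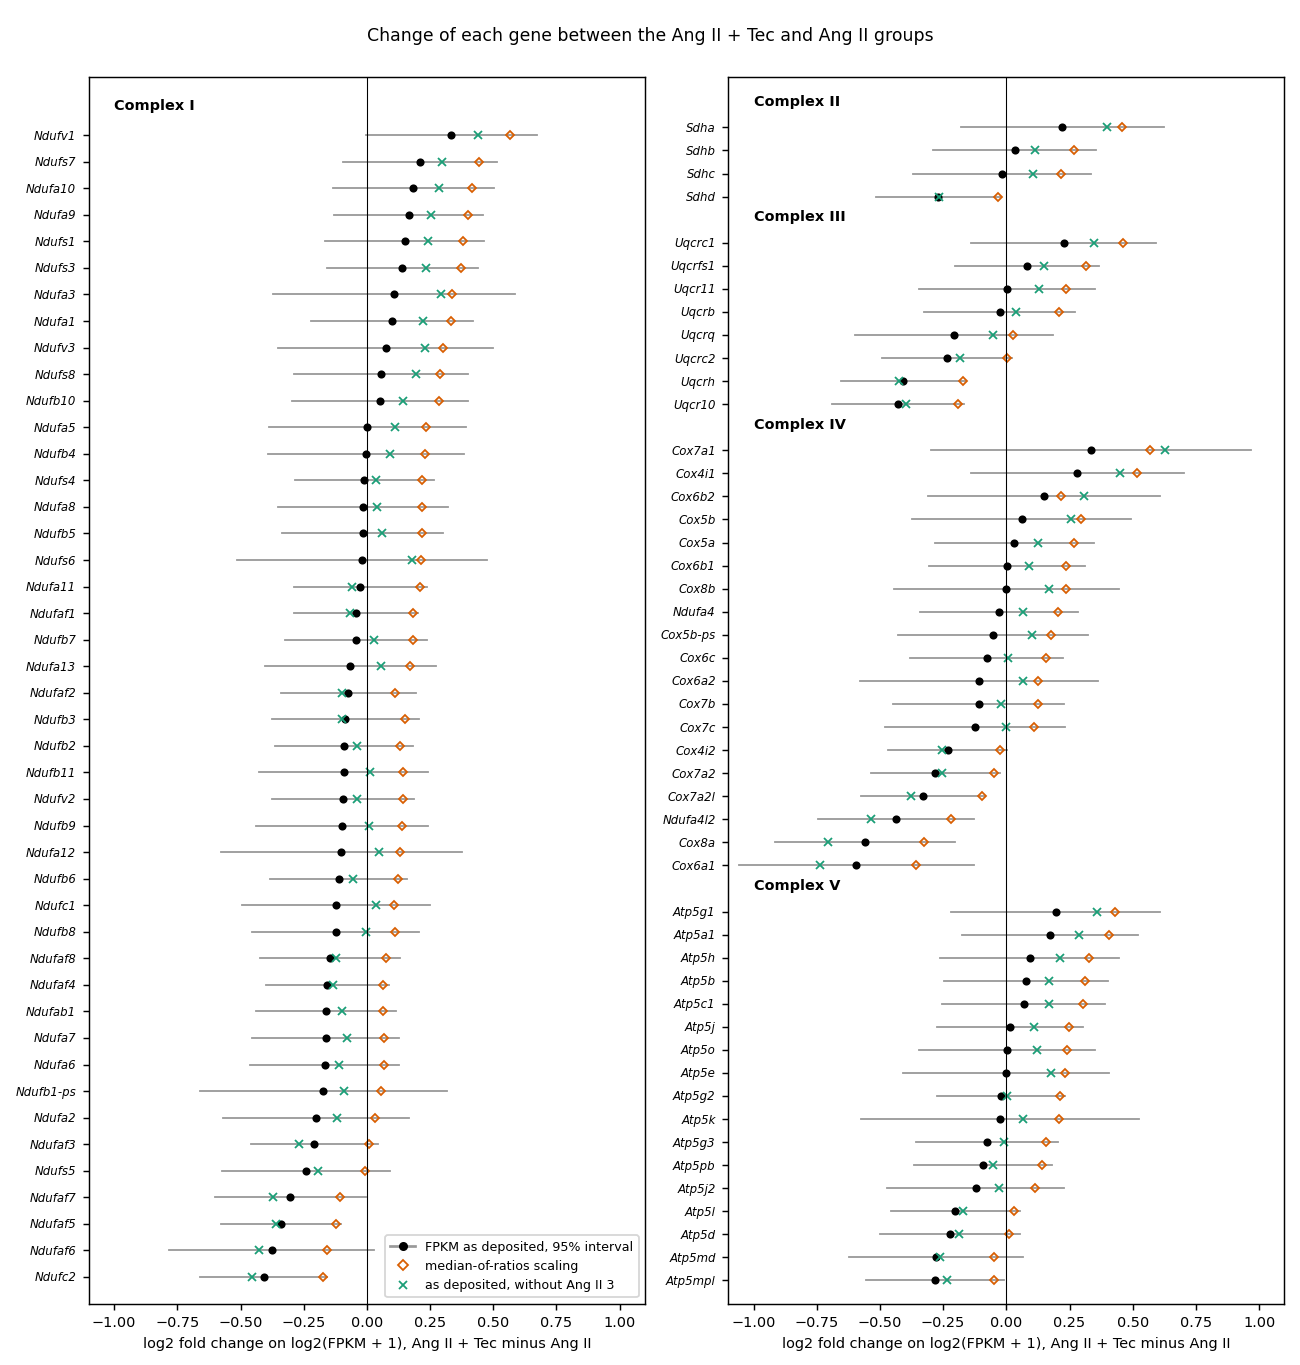
Log2 fold change of the tested genes reported here, Ang II + Tec minus Ang II, on the log2(FPKM + 1) scale. Black points with grey bars give the FPKM as deposited with the 95% interval of limma, orange diamonds the rescaled libraries and green crosses the deposited FPKM without Ang II replicate 3. Most diamonds lie to the right of the black points.

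In complex I, the core subunits that carry out electron transfer had a higher median fold change than the other subunits by both scalings, a difference that was not tested. Ndufv1, which binds NADH through its flavin, was at 121, 96.2 and 135 FPKM with Ang II and 145, 152 and 143 FPKM with Tec. Every Ang II + Tec value exceeded every Ang II value, which held in the higher direction for 2 of the 93 genes (2.9% among all tested genes). Its log2 fold change was 0.33 ± 0.14 (SE, n = 3 per group), with an adjusted p of 0.272 in limma, and 0.57 after rescaling. Without Ang II replicate 3 the change was 0.44, with an adjusted p of 0.0344 in limma.

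Of the 7 core subunits, 6 had a higher mean with Tec as deposited and 7 after rescaling, with medians of 0.15 and 0.38. Ndufs7 was at 100.2, 84.4 and 110.2 FPKM with Ang II and 114, 118 and 108 FPKM with Tec, and its groups overlapped. Ndufs1, the largest iron-sulphur subunit, ranged from 38.6 to 51.1 FPKM with Ang II and from 47.8 to 54.0 FPKM with Tec. Ndufv2 was the core subunit with a lower mean as deposited, at -0.09, which became 0.14 after rescaling.

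The 30 other complex I subunits had a median of -0.08 as deposited, with 7 higher, and of 0.16 after rescaling, with 28 higher. Ndufc2, a membrane subunit, had the lowest fold change among them. Its FPKM was 159, 172 and 150 with Ang II and 118, 125 and 118 with Tec, and the groups did not overlap. A lower level without overlap held for 18 of the 93 genes (18.9% among all tested genes). After rescaling it held for 3 of the 93 (10.8% among all tested genes), namely Ndufc2, Cox6a1 and Cox8a. For single genes, overlap is otherwise stated on the FPKM as deposited. The log2 fold change of Ndufc2 was -0.41 ± 0.11 (SE, n = 3 per group), with an adjusted p of 0.201 in limma, and -0.17 after rescaling. Ndufb9, the complex I gene with the highest mean, ranged from 348 to 453 FPKM with Ang II and from 326 to 386 FPKM with Tec. Its fold change was -0.10 as deposited and 0.14 after rescaling.

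The 8 complex I assembly factors, which build the complex and are not part of the finished enzyme, were low in level, at 3.45 to 17.8 FPKM on average. All 8 had a lower mean with Tec as deposited, with a median of -0.18, close to that of all tested genes, but 5 of the 8 were higher after rescaling, with a median of 0.04. None passed the adjusted test, and 2 (Ndufaf5 and Ndufaf7) were lower at an unadjusted p under 0.05, against 16.5% of all tested genes. Ndufaf5, which modifies the core subunit NDUFS7, was at 13.0, 12.9 and 12.4 FPKM with Ang II and at 10.4, 9.86 and 9.43 FPKM with Tec. The groups did not overlap, and Ang II replicate 3 lay with its own group. The log2 fold change of Ndufaf5 was -0.34 as deposited and -0.12 after rescaling, when the groups overlapped. Its adjusted p in limma was 0.22 as deposited. Without Ang II replicate 3 it was 0.0372 as deposited, but 0.796 with rescaled libraries.

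In complex II, Sdha, the flavin-bearing catalytic subunit that is shared with the citric acid cycle, was at 181, 154 and 240.2 FPKM with Ang II and 211, 222 and 227 FPKM with Tec. The Ang II + Tec values lay between those of Ang II replicate 3 and the other Ang II libraries. Its log2 fold change of 0.22 ± 0.17 (SE, n = 3 per group) had an adjusted p of 0.455 in limma, and 0.0337 without that library. Sdhd, a membrane anchor, had a lower mean with Tec. Its FPKM was 393, 364 and 380 with Ang II and 306, 310.2 and 327 with Tec, without overlap. Its fold change was -0.27 with an adjusted p of 0.25 in limma, and -0.03 after rescaling. Sdhb, the iron-sulphur subunit, and Sdhc, the other anchor, had fold changes of 0.03 and -0.02.

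In complex III, the small subunits Uqcrh and Uqcr10 had the lowest unadjusted p-values of all 93 genes, at 0.00549 and 0.00569 in limma, each with an adjusted p of 0.201. Uqcrh, the hinge protein between cytochrome c1 and cytochrome c, was at 346, 349 and 335 FPKM with Ang II and 270, 246 and 261 FPKM with Tec. Uqcr10 was at 366, 353 and 385 FPKM with Ang II and 288, 255 and 278 FPKM with Tec. In both genes the groups were well apart as deposited and Ang II replicate 3 lay with its own group. The log2 fold changes were -0.41 ± 0.10 (SE, n = 3 per group) for Uqcrh and -0.43 ± 0.11 (SE, n = 3 per group) for Uqcr10. After rescaling they were -0.17 and -0.19, and the groups overlapped in both genes. Without Ang II replicate 3 the adjusted p-values in limma were 0.0196 and 0.0278 as deposited, but 0.729 and 0.835 with rescaled libraries.

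Uqcrc1 and Uqcrfs1, the large core subunit and the Rieske iron-sulphur protein, had the highest fold changes of complex III, at 0.23 and 0.08. Uqcrc1 was at 167, 127 and 186 FPKM with Ang II and 189, 188 and 179 FPKM with Tec, so the groups overlapped through Ang II replicate 3. Uqcrc2, the partner of Uqcrc1 in the core, was at 272, 251 and 288 FPKM with Ang II and 229.9, 236 and 223 FPKM with Tec, without overlap. Its fold change was -0.23 as deposited and 0.00 after rescaling, and its adjusted p in limma was 0.293.

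Complex IV had the widest range of fold changes, and its lowest 2 belonged to subunit forms found in most tissues. Cox8a, the general form of subunit VIII, was at 196, 215 and 151 FPKM with Ang II and 120.1, 132 and 123 FPKM with Tec. The groups did not overlap, but Ang II replicate 3 was the Ang II library nearest to the Ang II + Tec values. The log2 fold change was -0.56 ± 0.15 (SE, n = 3 per group), with an adjusted p of 0.203 in limma, and -0.33 after rescaling. Cox6a1, the general form of subunit VIa, was at 116, 129.6 and 90.7 FPKM with Ang II and 63.5, 93.9 and 65.7 FPKM with Tec. The value of Ang II replicate 3 was under that of Ang II + Tec replicate 2, so the groups overlapped. The log2 fold change was -0.59 ± 0.20 (SE, n = 3 per group), with an adjusted p of 0.229 in limma, and -0.36 after rescaling. Cox6a1 and Cox8a were the 2 genes that were lower at an unadjusted p under 0.05 with rescaled libraries (8.2% of all genes), at 0.0305 and 0.0274 in limma. Ndufv1 was the 1 gene that was higher there (7.36% of all genes), at 0.0326 in limma.

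Cox7a2, the general form of subunit VIIa, was at 247, 264 and 271 FPKM with Ang II and 227, 204 and 212 FPKM with Tec, without overlap. Its fold change was -0.28 as deposited and -0.05 after rescaling. Cox7a2l, a related protein described as a factor of supercomplexes of complexes III and IV, was at 192, 192 and 174 FPKM with Ang II. With Tec it was at 146, 147 and 149.99 FPKM, also without overlap. Its fold change was -0.33 as deposited and -0.10 after rescaling, and the adjusted p in limma was 0.222. The muscle form Cox7a1 was at 243, 217 and 426 FPKM with Ang II and 416, 289 and 376 FPKM with Tec, a log2 fold change of 0.33 ± 0.27 (SE, n = 3 per group). The other muscle forms, Cox6a2 and Cox8b, had fold changes of -0.11 and 0.00 as deposited and of 0.13 and 0.24 after rescaling. Cox4i1, the main form of subunit IV, was at 422, 349 and 547 FPKM with Ang II and 568, 489 and 521 FPKM with Tec, and its adjusted p in limma went from 0.387 to 0.0345 without Ang II replicate 3. Cox5a and Cox5b had fold changes of 0.03 and 0.06.

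The start-site regions of 2 general forms with low fold changes and of 2 muscle forms are shown because they differed in the motifs searched. Each sequence spans 190 bases before to 10 bases after the annotated start, from RefSeq on GRCm38.p6, written 5′ to 3′ on the strand of the gene, and capitals mark a searched motif. Cox6a1 lies at chr5:115348949-115349148 (minus strand), Cox8a at chr19:7217607-7217806 (minus strand), Cox7a1 at chr7:30183981-30184180 (plus strand) and Cox8b at chr7:140900437-140900636 (minus strand).
Cox6a1: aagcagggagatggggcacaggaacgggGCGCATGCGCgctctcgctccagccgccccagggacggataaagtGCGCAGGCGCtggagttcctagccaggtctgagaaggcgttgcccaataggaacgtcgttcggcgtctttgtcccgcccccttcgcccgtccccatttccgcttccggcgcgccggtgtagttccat
Cox8a: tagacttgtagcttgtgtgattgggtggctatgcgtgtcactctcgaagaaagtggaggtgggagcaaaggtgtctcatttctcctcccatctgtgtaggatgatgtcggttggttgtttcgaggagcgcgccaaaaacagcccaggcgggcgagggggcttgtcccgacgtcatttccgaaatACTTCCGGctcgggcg
Cox7a1: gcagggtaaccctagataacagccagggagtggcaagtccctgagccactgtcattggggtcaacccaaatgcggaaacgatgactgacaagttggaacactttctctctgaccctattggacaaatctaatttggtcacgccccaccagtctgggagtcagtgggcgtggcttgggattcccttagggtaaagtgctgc
Cox8b: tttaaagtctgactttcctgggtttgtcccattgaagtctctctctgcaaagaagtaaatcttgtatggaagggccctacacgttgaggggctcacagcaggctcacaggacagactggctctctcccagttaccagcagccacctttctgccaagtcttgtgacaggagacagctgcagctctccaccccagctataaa

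The motifs were searched on both strands from 250 bases before to 50 bases after the start, in the 77 genes with an entry and in 17492 protein-coding genes. The consensus motif of the regulator NRF1, a palindrome, occurred in 7 of the 77 genes (9.1%, against 1.5% of all genes). With any base allowed in its middle, a form that includes the former, it occurred in 19 (24.7%, against 7.2%). The ETS motif CCGGAAGT occurred in 5 (6.5%, against 5.7%), the oestrogen-related receptor motif AAGGTCA in 8 (10.4%, against 4.7%) and the YY1 motif AAGATGGC in 11 (14.3%, against 3.6%). Cox6a1 held the consensus NRF1 motif and, nearer to its start and on the other strand, the looser form, seen above as GCGCAGGCGC. Cox8a held the ETS motif on the other strand, seen above as ACTTCCGG, across its start. Cox7a1 and Cox8b held none of these letters in the window. Neither did Cox7a2, a general form that also had a lower mean with Tec, and the muscle form Cox6a2 had no entry. The motifs thus did not separate general from muscle forms. A match describes the sequence and is not a measured site.

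The ratio of isoforms within a library does not depend on its scaling. Of 8 ratios compared by exact two-sided permutation tests, for which 3 libraries against 3 cannot give a p below 0.1, none had an adjusted p under 0.267. The ratio of Cox7a1 to Cox7a2 was 0.986, 0.824 and 1.57 with Ang II and 1.84, 1.42 and 1.77 with Tec. The ratio of Cox8b to Cox8a was 1.76, 1.45 and 3.09 with Ang II and 3.45, 2.33 and 3.15 with Tec. The ratio of Cox6a2 to Cox6a1 was 7.06, 4.61 and 11.1 with Ang II and 12.4, 7.14 and 11.3 with Tec.

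In all 3 ratios of muscle to general form, Ang II replicate 3 lay among the Ang II + Tec libraries and Ang II + Tec replicate 2 was the lowest of its group. The log2 differences were 0.62, 0.56 and 0.49, each with an exact permutation p of 0.2, and 0.88, 0.88 and 0.81 without Ang II replicate 3. In each of the 3 ratios the 6 libraries had the exact reverse of their order by fibroblast marker sum, from Ang II replicate 2, with the lowest ratios and 1059 FPKM of markers, to Ang II + Tec replicate 1, with the highest ratios and 168 FPKM. The libraries with the lowest ratios, Ang II replicates 1 and 2 and Ang II + Tec replicate 2, also had the highest sums of other marker lists. These were the lists of atrial cardiomyocytes, of smooth muscle and pericytes, and of adipocytes. A list of brown adipocyte markers held Cox7a1 and Cox8b themselves. Of its other genes, Ucp1 was at 18.3 FPKM in Ang II + Tec replicate 2 and at 0.62 FPKM or less elsewhere. Cidea was at 34.3 FPKM in that library and at 13.0 to 18.7 FPKM elsewhere, and Elovl3 was at 0.03 FPKM or less in every library. The part of fibroblasts or of these other cell types in the ratios was not tested, and with these libraries they cannot be told apart.

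Cox4i2, the form of subunit IV known from lung and from low oxygen, was the exception among the ratios in that its groups did not overlap. Its ratio to Cox4i1 was 0.0179, 0.022 and 0.0133 with Ang II and 0.0111, 0.0122 and 0.0123 with Tec. The log2 difference was -0.55, with an exact permutation p of 0.1, the smallest possible. Ndufa4l2, a low-oxygen paralog of the complex IV subunit Ndufa4, had ratios to Ndufa4 of 0.073, 0.0624 and 0.0444 with Ang II and 0.0401, 0.0474 and 0.0423 with Tec, a log2 difference of -0.44 and an exact permutation p of 0.2. Ndufa4l2 itself was at 17.3, 15.2 and 13.0 FPKM with Ang II and 11.1, 11.4 and 10.1 FPKM with Tec, and Ang II replicate 3 was the lowest of its group. Cox6b2, a testis form, was at 1.01 FPKM or less in every library, so its ratio to Cox6b1 rests on very few reads.

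**Figure D4:**
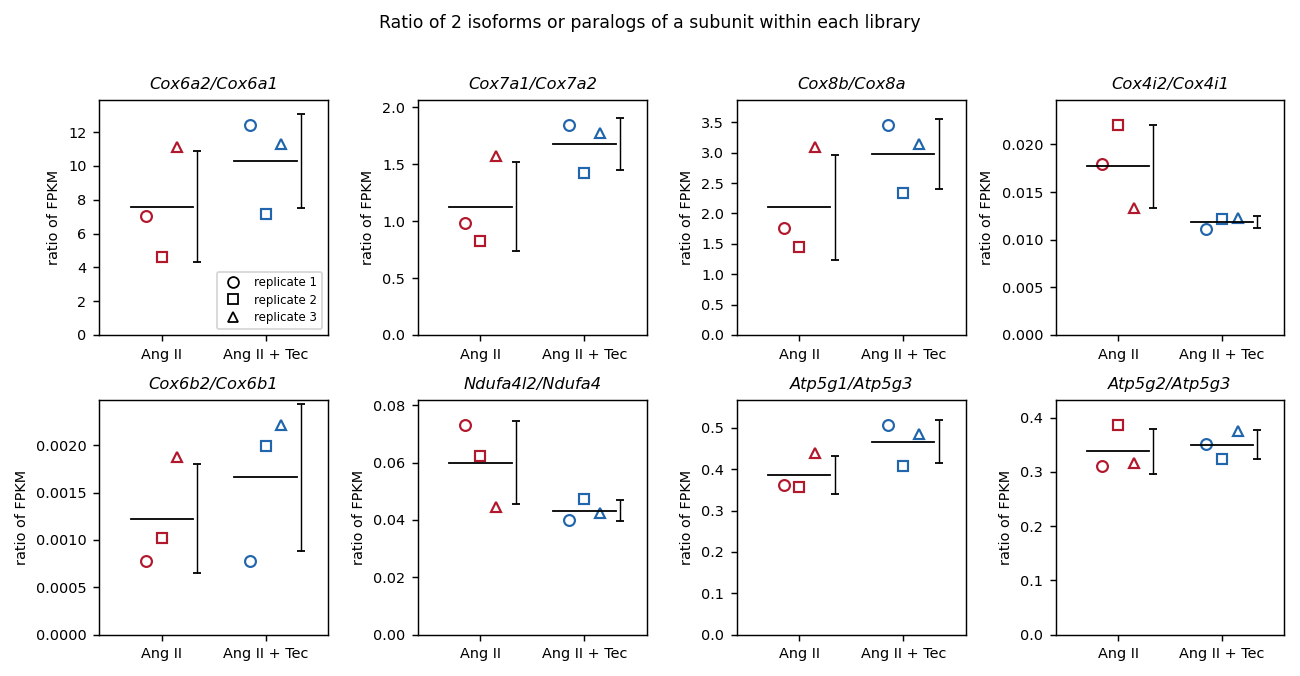
Ratio of the FPKM of 2 isoforms or paralogs in each library (symbols give the replicate), with the mean of each group as a line and its SD as the bar beside it (n = 3 per group); each vertical axis starts at 0. The groups overlap in every ratio except that of Cox4i2 to Cox4i1.

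In complex V, none of the 17 genes was called in limma and the fold changes were small, from -0.28 to 0.20, with a median of -0.02 as deposited and 0.21 after rescaling. The subunits Atp5a1 and Atp5b were the most abundant. Atp5a1 was at 771, 639 and 894 FPKM with Ang II and 872, 841 and 859.5 FPKM with Tec, and Atp5b at 732, 609 and 809.5 FPKM and at 770.3, 734 and 750.3 FPKM. In both, Ang II replicate 2 was lowest and the Ang II + Tec libraries lay within the range of the Ang II libraries. Their fold changes were 0.17 and 0.08, and that of Atp5c1, the central shaft, was 0.07. The lowest were the small membrane subunits Atp5mpl and Atp5md, at -0.28 each as deposited and -0.05 each after rescaling. Atp5mpl was at 95.5, 92.6 and 103 FPKM with Ang II and 87.2, 72.5 and 80.1 FPKM with Tec, without overlap, with an adjusted p of 0.262 in limma. Atp5g1, Atp5g2 and Atp5g3 encode the same mature ring subunit. The log2 differences of the ratios Atp5g1 to Atp5g3 and Atp5g2 to Atp5g3 were 0.27 and 0.06, with exact permutation p-values of 0.2 and 0.7.

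Some of these levels may be split with near-identical gene copies. Of the 94 genes, 25 had a pseudogene or a member of at least 95% identity over at least 150 bases, and in 14 the copies held over 10% of the FPKM of the gene. The copies held 256% of the level of Atp5g1 and 384% of that of Atp5l, so the levels of these genes, and the Atp5g ratios, are uncertain. The same holds for Ndufab1, Ndufa12, Ndufb4 and Atp5g2, with 179.9, 149.5, 142 and 95.3%, and for Atp5md, with 53.7%. Cox6a1, Cox8a, Cox7a1, Cox8b, Uqcrh, Uqcr10, Ndufc2, Ndufv1, Sdha and Cox4i1 had no such copy.

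Relative to the subunits encoded by the mitochondrial genome, the nuclear subunits were lower with Tec in all 4 mixed complexes. The same direction held for nuclear genes in general, since the genes tested had a median fold change (log2) of -0.17, against 0.38 for the 13 mitochondrial genes, and the share of FPKM from the mitochondrial chromosome was 41.3, 40.1 and 48.9% with Ang II and 51.3, 49.6 and 52.5% with Tec, without overlap. The sum of FPKM of the 37 nuclear complex I subunits was 6.2, 5.97 and 5.2% of that of the 7 mitochondrial ones with Ang II, and 4.39, 4.2 and 3.93% with Tec. For complex III it was 11.9, 11.3 and 9.71% with Ang II and 7.67, 7.46 and 7.16% with Tec. For complex IV it was 4.62, 4.26 and 4.31% with Ang II and 3.74, 3.44 and 3.47% with Tec.

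For complex V the values were 13.3, 11.8 and 11.9% with Ang II and 10.0, 10.7 and 9.32% with Tec. The groups did not overlap in any of the 4 complexes, and Ang II replicate 3 lay with its own group throughout. The log2 differences were -0.47, -0.56, -0.31 and -0.30 for complexes I, III, IV and V, against pooled SDs of 0.11, 0.12, 0.07 and 0.10. They stayed negative when any library was left out, within -0.65 to -0.25. This ratio does not change with the scaling of a library, and no test was made of it since it sums over chosen genes.

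The 13 mitochondrial genes summed to 201035, 196182 and 268269 FPKM with Ang II and to 287396, 261251 and 298731 FPKM with Tec, and these overlapped through Ang II replicate 3 and Ang II + Tec replicate 2. All 13 had a higher mean with Tec by both scalings, with a median log2 fold change of 0.38 as deposited and 0.62 after rescaling, 4 of them at an unadjusted p under 0.05 (2.09% of all tested genes in that direction) and none at an adjusted one in limma. Without Ang II replicate 3 the median was 0.54 and 9 of the 13 were called higher, against 2.61% of all tested genes. The lowest p-values belonged to mt-Nd4l and mt-Nd2, both of complex I, with log2 fold changes of 0.56 and 0.51 as deposited.

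**Figure D5:**
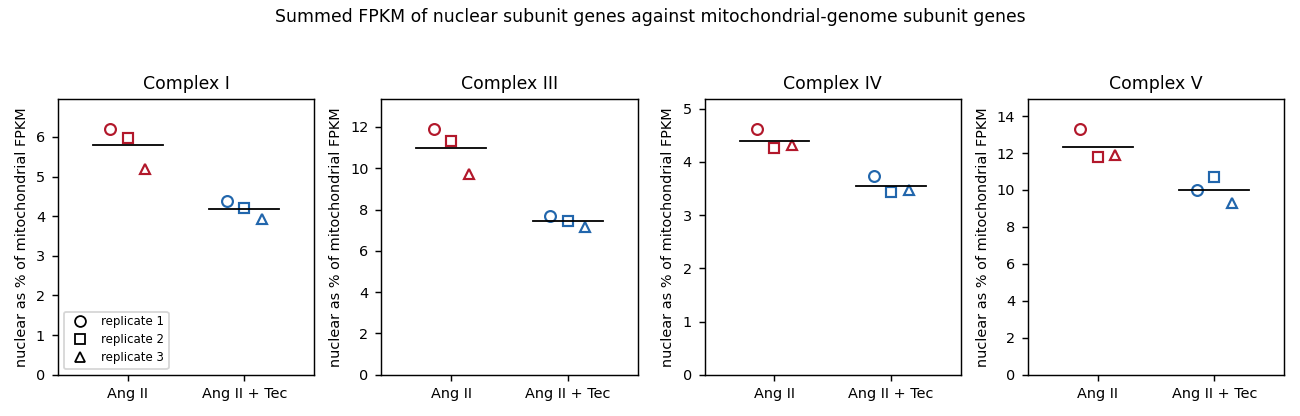
Summed FPKM of the nuclear subunits as a percentage of that of the mitochondrial-genome subunits of the same complex, in each library, with the mean of each group as a line; each axis starts at 0. Each Ang II + Tec library lies below each Ang II library in all 4 complexes.

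Genes that build or serve the complexes were examined as lists. None of their genes passed the adjusted test in limma with all libraries. For the counts that follow, 10471 of 13089 tested genes had a lower mean as deposited, 16.5% were lower and 2.09% higher at an unadjusted p under 0.05, and without Ang II replicate 3 limma called 26.2% lower and 2.61% higher at an adjusted one. Of the 6 complex III assembly factors all had a lower mean with Tec, 4 of them at an unadjusted p under 0.05, with a median of -0.46 as deposited and -0.24 after rescaling, and 4 were called lower without Ang II replicate 3. Lyrm7, which handles the Rieske protein, was at 5.14, 4.86 and 3.85 FPKM with Ang II and 2.74, 2.56 and 2.77 FPKM with Tec, a log2 fold change of -0.60 and an adjusted p of 0.185 in limma. Uqcc2 had a fold change of -0.52.

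Of 20 tested complex IV assembly factors, 19 had a lower mean and 7 were lower at an unadjusted p under 0.05, with a median of -0.21 as deposited and -0.02 after rescaling. Without Ang II replicate 3, 8 were called lower and 1, Lrpprc, higher. Coa3, an early assembly factor, was at 72.1, 68.2 and 57.0 FPKM with Ang II and 47.3, 42.0 and 44.1 FPKM with Tec. The groups did not overlap, and Pet100 had a fold change of -0.46. Lrpprc, which stabilises mitochondrial transcripts, was the tested gene of this list with a higher mean, at 8.39, 7.14 and 9.17 FPKM with Ang II and 12.0, 11.4 and 9.76 FPKM with Tec. All 4 complex II assembly factors had a lower mean, 2 of them (Sdhaf1, -0.56, and Sdhaf4, -0.33) at an unadjusted p under 0.05. The list median was -0.23 as deposited and -0.03 after rescaling, and both genes were called lower without Ang II replicate 3. Among the 9 other complex I assembly factors 8 were lower and 3 had an unadjusted p under 0.05, led by Timmdc1 (-0.47) and Dmac1 (-0.34). Their median was -0.11 as deposited and 0.10 after rescaling, and 3 were called lower without Ang II replicate 3.

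The 17 electron carriers and coenzyme Q genes were divided, with 9 higher and 8 lower and a median of 0.01, or 0.19 after rescaling, and without Ang II replicate 3 there were 2 called higher and 3 lower. Pdss1, a subunit of the enzyme that makes the coenzyme Q side chain, had a fold change of -0.39, and Coq10b one of -0.39. Of 5 genes for assembly and inhibition of complex V, 4 were lower, with a median of -0.09, or 0.13 after rescaling, none had an unadjusted p under 0.05 and none was called without Ang II replicate 3. Apart from Atp5md, the lowest p was that of Atpaf1, with a fold change of -0.09. Of 11 regulators 4 were higher and 7 lower, with a median of -0.09, or 0.08 after rescaling, and 1, Tfb2m, was called higher without Ang II replicate 3. Tfb2m, a mitochondrial transcription factor, was at 14.0, 12.1 and 15.3 FPKM with Ang II and 17.2, 17.6 and 17.6 FPKM with Tec, a fold change of 0.33 with an adjusted p of 0.234 in limma. Esrra, a nuclear receptor that drives many oxidative phosphorylation genes, was at 34.2, 28.4 and 31.6 FPKM with Ang II and 23.3, 26.4 and 25.2 FPKM with Tec, a fold change of -0.32 as deposited and -0.09 after rescaling.

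Across the 92 genes with a transcript length, Spearman's rho of length with log2 fold change was 0.13, against 0.16 across all 11435 genes with a length. With the deviation of Ang II + Tec replicate 2 from its group it was 0.38. These are descriptions over genes of the same libraries. Ang II + Tec replicate 2 was lower than both other Ang II + Tec libraries in 64 of the 93 genes and higher than both in 13.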

How the data were processed

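Hearts of 3 Ang II and 3 Ang II + Tec mice were analysed. The authors deposited FPKM for each gene and library, scaled to library size and transcript length. Per the labels' processing notes, Bowtie 0.12.2, HISAT2 2.0, StringTie 1.3.0 and build mm8 were named, but 90.6% of the genes have the coordinates of GENCODE M21 on GRCm38, so no coordinate of the table is printed. FPKM are relative to library size, so a rise of abundant transcripts can lower other values. The labels give a NovaSeq instrument, the paper a HiSeq. Raw counts were not used here, so depth is known only as a relative value (0.89 to 1.21) and no counting interval is given. Nothing in the labels ties replicate numbers to a shared batch, and the p-values measure the spread between these libraries.

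Genes that reached 0.5 FPKM in 3 or more libraries entered the test on log2(FPKM + 1) with limma 3.58.1 (R 4.3.3, variance trend), with Benjamini-Hochberg adjustment over all tested genes and a call at an adjusted p under 0.05 with no fold limit. Isoform ratios were compared by exact permutation (scipy 1.17.1), adjusted over 8 ratios. The fit was tested on simulated data. Alternatives changed the pseudocount, filter, scaling, variance trend and replicate block, and left out each library. The genes and lists were chosen with earlier results of these data known. Named are the genes with the highest mean and the lowest p in each direction of each complex, the core subunits, the isoform pairs, genes below the filter and the 2 genes with the lowest p of each related list; others were named after their values were seen. Counts and medians cover all tested genes; 1 gene is not reported here by name.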

Additional observations from a re-analysis of the deposited data

How the results depend on the processing

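The absence of calls among the 93 tested genes rested on Ang II replicate 3. Leaving out each library in turn gave 0 to 13 called genes, with 13 without Ang II replicate 3, and 2 to 3776 of all genes. Without that library, 9 were called with median-of-ratios scaling and 9 with scaling to the subunits' own geometric mean, when 1816 and 2368 of all genes were called. All genes called went from 24 to 3 with no filter on low FPKM and to 13 with FPKM of at least 1 in all libraries. These scalings to the subunits, to the sum of nuclear protein-coding genes, and the scalings without Ang II replicate 3 were chosen after seeing the data.

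Genes lower at an unadjusted p under 0.05 numbered 12 as deposited, 2 with median-of-ratios scaling (2 also without Ang II replicate 3), 3 each with quantile normalization and with scaling to nuclear protein-coding genes or to the subunits, and 4 to 13 with a library left out. Genes that were higher numbered 0 as deposited, 1 each with FPKM of at least 1 in all libraries, median-of-ratios scaling or scaling to the sum outside the mitochondrial genome, 5 with quantile normalization, 3 each with scaling to nuclear protein-coding genes or to the subunits, and 0 to 11 with a library left out. Without Ang II replicate 3, they numbered 33 with median-of-ratios scaling and 8 with scaling to the subunits. The median log2 fold change of -0.05 became 0.18 with median-of-ratios scaling, 0.12 with quantile normalization, 0.16 with scaling to nuclear protein-coding genes and 0.37 with median-of-ratios scaling without Ang II replicate 3. Leaving out Ang II replicate 2 gave the lowest median, -0.13, and leaving out replicate 3 of that group turned its sign, to 0.04. The other single libraries gave -0.11 to -0.01. The nuclear to mitochondrial difference of complex IV was -0.42 from mean log2 values instead of -0.31. The difference of the Atp5g2 to Atp5g3 ratio ranged from -0.002 to 0.16 with a library left out and reversed without Ang II replicate 1. The cause of these changes was not tested.

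With the replicate number as a block, 10 genes were lower at an unadjusted p under 0.05, 0 genes were called and 23 of all genes were called. The replicate numbers were not taken as pairs, since nothing in the labels ties them to a shared batch. Deviations of same-numbered libraries correlated at -0.04, 0.43 and 0.38. Ang II replicates 2 and 3 correlated best with the Ang II + Tec library of the same number. Ang II replicate 1 correlated best with Ang II + Tec replicate 2 (0.21). The exact sign-flip p cannot fall below 0.25 with 3 pairs. With 3 libraries a group and depth known only as a relative value, differences smaller than the intervals drawn could not be resolved.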

Other observations

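Among the 14 rows with a matching name and no protein-coding transcript, Ndufa12-ps, a copy of Ndufa12 with 99.5% identity, had FPKM of 166.8, 45.6 and 62.9 in the Ang II libraries and 56.1, 73.6 and 158 in the Ang II + Tec libraries. The values of Ndufa12 itself were 49.9, 66.6 and 79.0 FPKM with Ang II and 71.6, 59.7 and 49.6 FPKM with Tec. The libraries with the highest Ndufa12-ps, Ang II replicate 1 and Ang II + Tec replicate 3, were those with the lowest Ndufa12. Ndufb4c, with 100% identity to Ndufb4, was at 66.7, 63.5 and 75.6 FPKM with Ang II and 82.3, 62.2 and 73.4 FPKM with Tec. Both genes were chosen after their values were seen.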
